A study of Homo sapiens with 47 samples.

Results

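The mitosis and G2/M genes described here are 54 protein-coding genes listed by symbol, whose products start mitosis, build and monitor the spindle, separate the chromosomes and divide the cell. All 54 symbols were found among the 62703 genes of the RNA tables. The rule that lists them uses no measured value, but the members were chosen with earlier results of these data known. The samples were PC3 cells, an established human prostate cancer line, transduced with a DDC construct, an SLC6A4 construct or the empty vector (EV). DDC encodes the aromatic amino acid decarboxylase, the last step in making serotonin and dopamine. SLC6A4 encodes the plasma membrane carrier that takes serotonin up. All 3 lines share the PC3 background and growth medium and carry a construct or the vector, with no drug named for the samples compared here. TGM2 knockdown was added to SLC6A4 cells in 1 library of a further chromatin assay (CUT&Tag), and no other library carries it. The labels give neither the promoter of the constructs, nor whether a line is 1 clone, nor whether replicates were separate cultures, so p-values measure only the spread between these samples, which may be technical. RNA was sequenced in 3 libraries of each line. Chromatin immunoprecipitation (ChIP) covered H3K4me3, the histone mark of active promoters, and H3K4me3Q5ser, the same tail with serotonin bound to the neighbouring glutamine, in 3 libraries of each line. The comparisons bear on how raised serotonin synthesis or uptake goes with gene expression and with the serotonylated mark.

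Entry into mitosis is driven by the kinase CDK1 bound to a B-type or A-type cyclin, and is reinforced by CDC25 phosphatases, PLK1 and Aurora kinases. Kinetochores then attach chromosomes to the spindle, a checkpoint holds the anaphase-promoting complex (APC/C) back until every chromosome is attached, and the APC/C finally triggers destruction of cyclin B and securin. Many of these genes share promoter elements, a cell cycle genes homology region (CHR) and CCAAT boxes, through which the DREAM and MuvB complexes, FOXM1 and NF-Y act, so that their RNAs peak together late in the cell cycle. In bulk RNA, a larger share of cells in G2 or mitosis and more RNA of these genes per cell cannot be told apart.

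RNA libraries held 17284019 to 21745703 reads in genes. DDC had 23.9, 27.5 and 30.8 normalised reads in the DDC libraries, 2.79, 0 and 0 in the SLC6A4 libraries and 0, 0 and 0.86 in the EV libraries. SLC6A4 had 1.04, 1.10 and 0 normalised reads in the DDC libraries, 87.4, 108.9 and 129.5 in the SLC6A4 libraries and 0, 0 and 0.86 in the EV libraries. Each construct's gene was therefore clearly above the other lines only where the label places it. TGM2, the enzyme that serotonylates the histone tail, averaged 13968 normalised reads in DDC, 31962 in SLC6A4 and 19355 in EV libraries. The prostate secretory markers KLK2 and KLK3 were at or near 0 in the 3 lines. The epithelial markers KRT8, KRT18, KRT19, EPCAM and CDH1 were all measured, and their summed normalised reads ranged from 16162 to 19700 in DDC, from 23518 to 25670 in SLC6A4 and from 25333 to 30932 in EV libraries. Of 12 markers of immune, endothelial and stromal cells 3 were tested, PTPRC had 1 read over all 9 libraries, and the list's summed normalised reads were 240.0 to 265.1 in DDC, 169.3 to 211.5 in SLC6A4 and 394.0 to 425.8 in EV libraries, with CD3E and DCN at 0 in all 9. Of the epithelial markers 5 fell in DDC and 4 in SLC6A4, and of the other-cell markers PECAM1 and COL1A1 fell in both lines; the part of these markers in the members' values was not tested. Among the 54 members, DDC library 3 held the lowest value of its line for 26 and the highest for 20, and SLC6A4 library 1 the lowest of its line for 31 and the highest for 12.

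All 54 members passed the filter of at least 10 normalised reads in at least 3 libraries, in each comparison. Per length, their levels in EV cells had a median of 4.57 TPM, a level scaled by exon length and library depth, against 1.18 over the 13820 genes with at least 10 reads in 3 libraries, and 44 of 54 members lay above that value. UBE2C, which hands ubiquitin to APC/C substrates, was highest at 827 TPM, followed by PTTG1 (securin) at 341, CKS2 at 229, CCNB1 and CDC20 at 176 each. KIF11 and INCENP were lowest, at 0.259 and 0.269 TPM in EV cells. Together the members summed to 70921 to 77371 normalised reads in DDC, 78077 to 81118 in SLC6A4 and 61179 to 62991 in EV libraries, so that the 3 lines did not overlap in this sum. Abundant members weigh most in it, UBE2C and PTTG1 averaging 12943 and 8171 in EV libraries, so it does not describe each member.

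The promoter elements of the set are visible in the sequences of the members that rose most clearly in SLC6A4 cells. The 6 promoters below are those of the risen members with the smallest adjusted p against EV that have an entry in the RefSeq promoter table (GRCh38.p14). Each runs 5′ to 3′ from 250 bases before to 50 bases after the gene's start in that table. Capitals mark TTTGAA or TTTAAA (CHR letters) and CCAAT on either strand. The reverse of TTTGAA is TTCAAA and that of CCAAT is ATTGG.
CCNB1, chr5:69166900-69167199, plus strand: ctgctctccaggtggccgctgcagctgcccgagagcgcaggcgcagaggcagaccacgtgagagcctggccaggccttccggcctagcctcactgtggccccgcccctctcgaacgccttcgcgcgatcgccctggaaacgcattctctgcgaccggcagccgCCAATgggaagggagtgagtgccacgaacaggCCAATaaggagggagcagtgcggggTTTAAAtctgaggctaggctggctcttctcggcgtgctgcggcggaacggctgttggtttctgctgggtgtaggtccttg
CDCA8, chr1:37692266-37692565, plus strand: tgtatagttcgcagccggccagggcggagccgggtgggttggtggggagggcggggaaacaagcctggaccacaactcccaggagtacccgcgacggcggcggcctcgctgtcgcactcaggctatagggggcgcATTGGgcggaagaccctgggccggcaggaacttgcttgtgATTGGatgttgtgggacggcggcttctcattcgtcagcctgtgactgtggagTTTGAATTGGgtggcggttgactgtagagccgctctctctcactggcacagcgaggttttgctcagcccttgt
CDC20, chr1:43358731-43359030, plus strand: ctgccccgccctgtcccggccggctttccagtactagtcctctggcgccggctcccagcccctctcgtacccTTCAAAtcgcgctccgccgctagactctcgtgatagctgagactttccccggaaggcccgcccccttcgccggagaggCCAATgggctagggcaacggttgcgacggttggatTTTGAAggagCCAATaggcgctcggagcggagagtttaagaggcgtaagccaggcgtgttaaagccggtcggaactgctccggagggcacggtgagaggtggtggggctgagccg
CKS1B, chr1:154974431-154974730, plus strand: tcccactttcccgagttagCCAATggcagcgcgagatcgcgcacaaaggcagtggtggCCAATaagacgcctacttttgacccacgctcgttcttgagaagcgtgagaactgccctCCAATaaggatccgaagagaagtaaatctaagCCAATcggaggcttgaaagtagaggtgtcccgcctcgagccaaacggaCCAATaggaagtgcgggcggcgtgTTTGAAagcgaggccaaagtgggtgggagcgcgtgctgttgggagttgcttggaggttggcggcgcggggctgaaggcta
CDCA3, chr12:6851237-6851536, minus strand: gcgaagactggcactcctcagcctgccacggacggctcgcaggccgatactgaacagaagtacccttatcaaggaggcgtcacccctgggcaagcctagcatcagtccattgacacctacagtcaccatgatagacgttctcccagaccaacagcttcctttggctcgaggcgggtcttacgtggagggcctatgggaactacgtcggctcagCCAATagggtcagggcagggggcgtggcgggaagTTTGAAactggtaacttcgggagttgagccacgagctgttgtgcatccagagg
AURKB, chr17:8210176-8210475, minus strand: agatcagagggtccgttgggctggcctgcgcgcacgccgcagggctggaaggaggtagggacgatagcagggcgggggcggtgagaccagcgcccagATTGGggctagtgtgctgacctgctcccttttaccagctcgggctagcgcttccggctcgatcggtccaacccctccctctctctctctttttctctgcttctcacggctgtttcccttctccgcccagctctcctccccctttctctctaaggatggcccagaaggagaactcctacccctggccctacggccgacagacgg
CCNB1 carried 1 TTTAAA and 2 CCAAT, CDC20 carried 2 TTTGAA and 2 CCAAT, and CKS1B carried 5 CCAAT with 1 TTTGAA. In CDCA8 the TTTGAA ran into an ATTGG, so that the final letters of 1 are the first of the other. AURKB had 1 CCAAT box and neither CHR spelling in this window, which says only that these letters are absent there. The AURKB window lies inside the gene in the annotation used for the ChIP regions, where AURKB starts at 8210600. Bases before that start were not searched.

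Over all 45 members with a promoter entry, TTTGAA was found in 32, or 71.1%, against 9.71% of 9317 promoters of tested genes and 15.4% of all 27305 promoters in the table. TTTAAA was found in 13 (28.9%), against 7.35% of tested and 12.3% of all promoters. Either spelling lay within 50 bases of the start in 31 members (68.9%), against 4.46% of tested and 7.75% of all promoters. CCAAT was found in 33 members (73.3%), against 37.3% of tested and 35.7% of all promoters, and 22 members (48.9%) held it at least 2 times, against 14% of tested promoters. GGCGGGA, an E2F-type site, was in 12 members (26.7%), close to the 25.8% of tested promoters. Among the 16 matched members that rose in SLC6A4 cells 14 held a CHR spelling, and among the other 29 matched members 24 did. These are counts of letters, and no binding of any factor was measured.

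In RNA, more members rose than fell in each line. In DDC cells 13 of 54 members rose and 2 fell relative to EV (24.1% and 3.7%), while 8.94% of the 13146 genes tested rose and 8.41% fell. In SLC6A4 cells 22 of 54 rose and 0 fell (40.7% and 0%), while 10.2% of the 13264 genes tested rose and 9.28% fell. The members' median log2 fold change was 0.11 in DDC and 0.29 in SLC6A4 cells, beside 0.01 over all genes in each comparison. The 3 libraries of a line lay wholly above EV for 16 members and wholly below for 5 in DDC (17.3% and 16.1% of genes), and for 26 and 1 in SLC6A4 (18.5% and 16.4%). Members ranged from -0.84 to 0.50 in DDC and from -0.22 to 0.74 in SLC6A4 cells, and 34 and 49 of the 54 lay above 0. The pair of comparisons shares its EV libraries, so their results are set side by side and not as support for each other. Calls are from limma on log2(normalised reads + 1) at an adjusted p of 0.05, values per library are given on 1 scaling of all 9 libraries, and fold changes against EV come from the deposited scaling of each pair. Whichever library was left out, 7 of the 13 rises in DDC and 16 of the 22 in SLC6A4 kept their call. The calls of AURKB, CDC20, CDC25B, CKS1B, KIF2C and PLK1 in DDC, and of CCNA2, CCNB2, HMMR, KIF2C, NCAPD2 and RACGAP1 in SLC6A4, were each lost without at least 1 library, at adjusted p up to 0.158 and 0.135. AURKB in DDC kept its call in only 1 of the 6 runs that left out a library. CDC25B and KIF2C in DDC and CCNA2 in SLC6A4 kept theirs in 2 of 6. Scaling by library size alone moved the median of all genes in DDC to -0.12, with 578 genes higher and 1740 lower in place of 1175 and 1106, and then 6 members were higher and 5 lower and the members' median was -0.01.

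**Figure D1:**
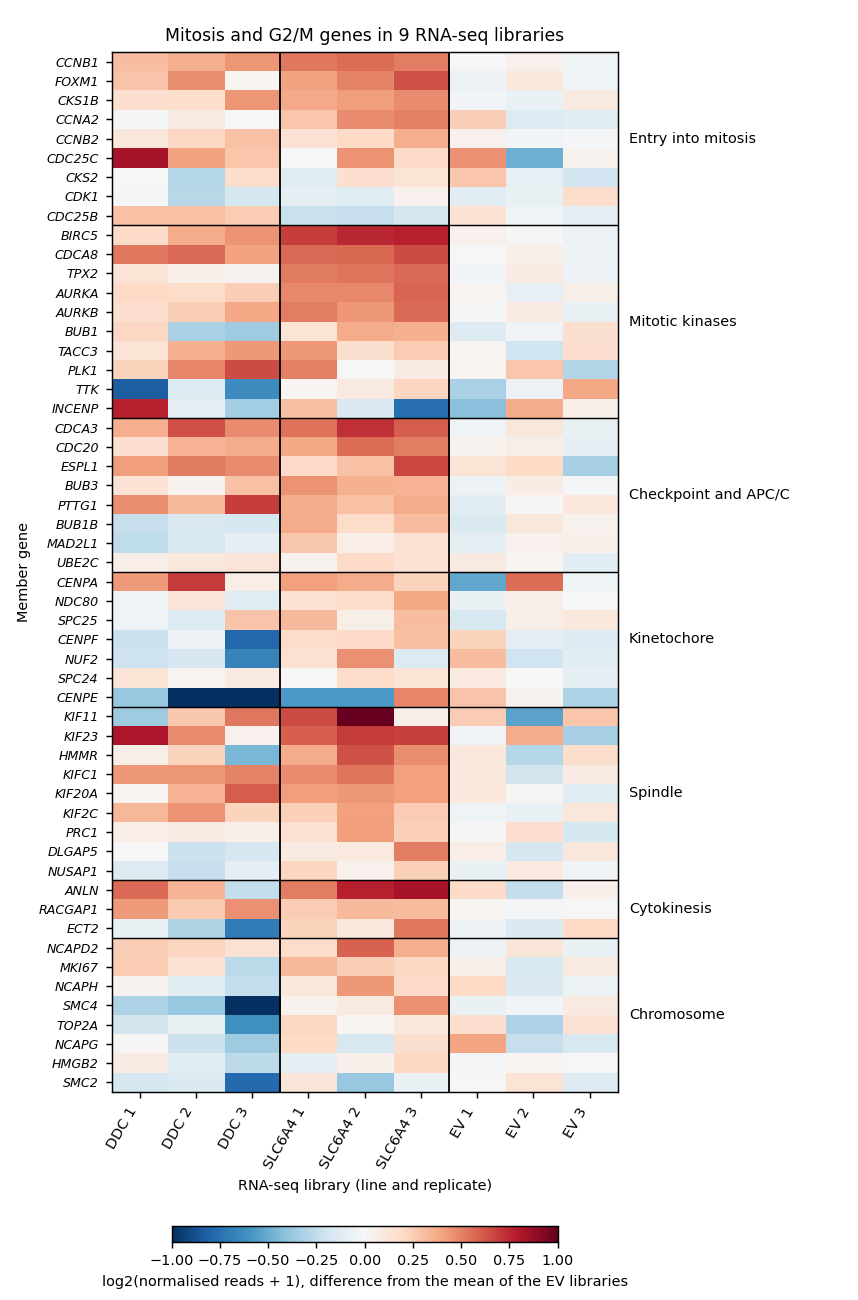
Each of the 54 members (rows, grouped by role) in the 3 DDC, 3 SLC6A4 and 3 EV libraries (columns); colour is the log2(normalised reads + 1) minus the mean of the EV libraries, capped at 1 either way. Most cells of the SLC6A4 columns are red, where 49 of 54 members had a positive fold change; the DDC columns mix red and blue, with the darkest blue at CENPE and SMC4.

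**Figure D2:**
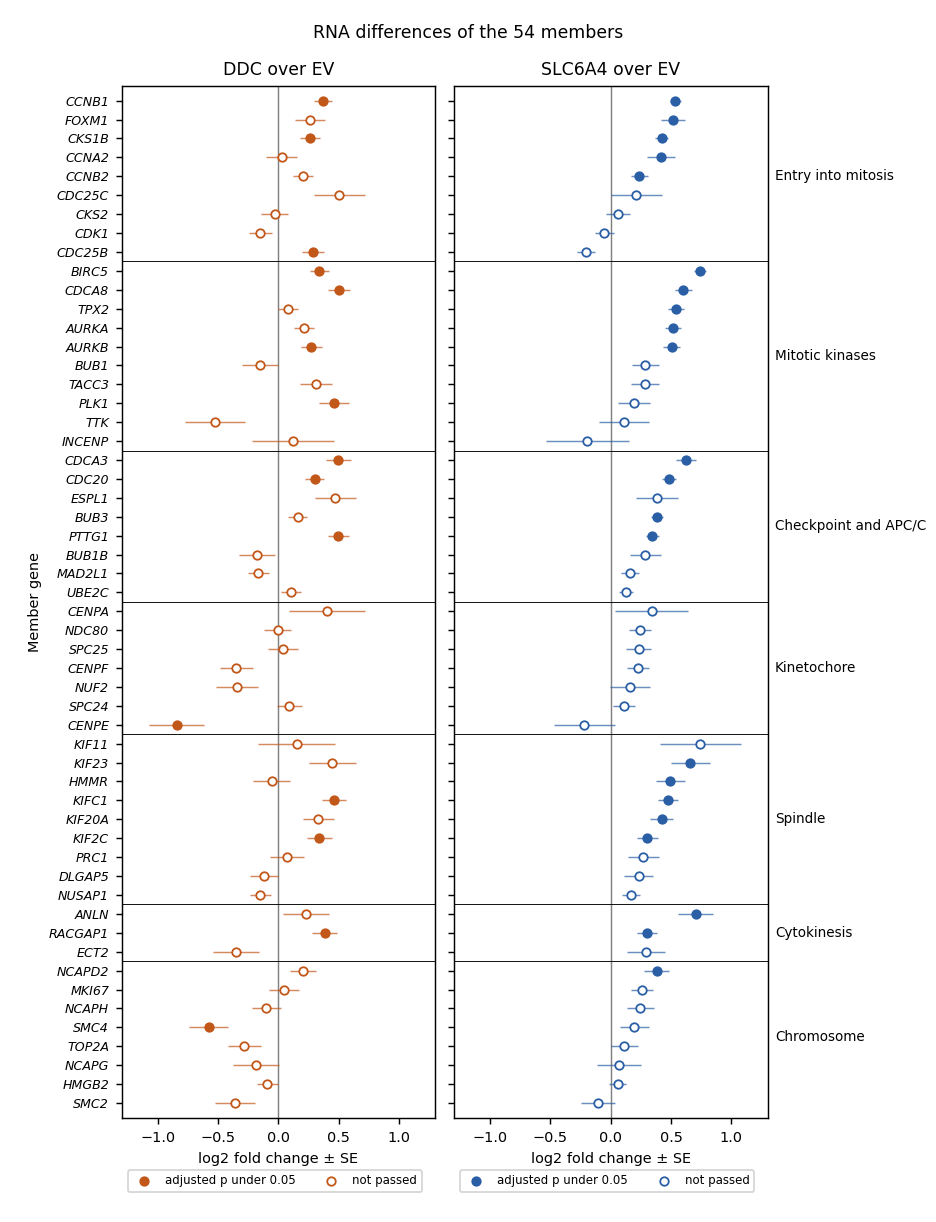
The log2 fold change and its standard error for every member in DDC over EV (left) and SLC6A4 over EV (right), in role groups; filled points passed an adjusted p of 0.05 (limma). DDC has 13 filled points above 0 and 2 below, CENPE and SMC4; SLC6A4 has 22 above 0.

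Of the 9 genes of mitotic entry, 3 rose in DDC cells (CCNB1, CKS1B, CDC25B) and 5 in SLC6A4 cells (CCNB1, CKS1B, FOXM1, CCNA2, CCNB2), and none fell. Beside this and the counts by role below, 8.94% of all genes rose and 8.41% fell in DDC. The shares in SLC6A4 were 10.2% and 9.28%. CCNB1, cyclin B1, had 6444, 6632 and 7050 normalised reads in DDC libraries, 7501, 7670 and 7418 in SLC6A4 libraries, and 5194, 5352 and 5046 in EV libraries. The 3 lines did not overlap, with SLC6A4 highest and EV lowest. The log2 fold change over EV was 0.37 ± 0.075 (SE) in DDC (adjusted p = 0.00103) and 0.54 ± 0.048 in SLC6A4 (adjusted p = 3.25e-07). CKS1B, a small subunit that binds CDK1, had 4549, 4557 and 5478 normalised reads in DDC, 5267, 5404 and 5600 in SLC6A4 and 3976, 3866 and 4302 in EV libraries. Its highest DDC library overlapped the SLC6A4 range, and all 3 EV libraries lay below both lines. It rose by 0.26 on the log2 scale in DDC (adjusted p = 0.031) and by 0.42 in SLC6A4 (adjusted p = 2.08e-05).

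FOXM1, the transcription factor that activates many late cell cycle genes, had 205.7, 233.2 and 171.1 normalised reads in DDC, 223.2, 237.8 and 262.0 in SLC6A4 and 161.5, 180.8 and 163.3 in EV libraries. SLC6A4 libraries lay above every EV library, and 1 DDC library fell inside the EV range. FOXM1 rose in SLC6A4 cells (0.51 ± 0.10, adjusted p = 0.00128), while its value in DDC, 0.26 ± 0.125, did not pass (adjusted p = 0.16). CDC25B, a phosphatase that activates cyclin-CDK1, had 736.5, 737.1 and 715.1 normalised reads in DDC, 513.5, 511.9 and 535.0 in SLC6A4 and 662.5, 582.6 and 559.9 in EV libraries, so that DDC lay above EV and SLC6A4 below it without overlap. It rose in DDC (0.29, adjusted p = 0.0288) and had -0.21 in SLC6A4 (adjusted p = 0.0707). CDK1 itself had 881.9, 734.9 and 787.7 normalised reads in DDC, 830.6, 818.6 and 916.7 in SLC6A4 and 827.1, 846.2 and 1002 in EV libraries, and the 3 lines overlapped throughout. Its log2 fold changes were -0.15 ± 0.094 and -0.06 ± 0.079, with adjusted p = 0.308 and 0.686 in DDC and SLC6A4. CCNA2 (cyclin A2) rose by 0.42 in SLC6A4 (adjusted p = 0.0178) and CCNB2 (cyclin B2) by 0.24 (adjusted p = 0.0201). CKS2 and CDC25C did not pass in either line, with -0.03 and 0.50 in DDC and 0.06 and 0.21 in SLC6A4.

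Among 10 mitotic kinases and their partners, 4 rose in DDC cells (CDCA8, PLK1, BIRC5, AURKB) and 5 in SLC6A4 cells (BIRC5, CDCA8, TPX2, AURKA, AURKB), and none fell. The shares of all genes higher were 8.94% and 10.2%. BIRC5 (survivin), CDCA8 (borealin), AURKB and INCENP form the chromosomal passenger complex, which corrects faulty attachments. BIRC5 had 6542, 7412 and 7839 normalised reads in DDC, 9247, 9668 and 9844 in SLC6A4 and 5926, 5780 and 5524 in EV libraries, without overlap between any of the lines. It rose by 0.34 ± 0.080 in DDC (adjusted p = 0.0043) and by 0.74 ± 0.050 in SLC6A4 (adjusted p = 7.08e-09), or 1.27-fold and 1.67-fold. CDCA8 had 673.1, 695.3 and 617.6 normalised reads in DDC, 693.9, 698.8 and 737.3 in SLC6A4 and 469.1, 483.5 and 451.9 in EV libraries. Both overexpressing lines stood well above EV and overlapped each other. Its log2 fold changes were 0.50 ± 0.089 (adjusted p = 0.000294) and 0.60 ± 0.070 (adjusted p = 7.24e-06) in DDC and SLC6A4. AURKB, the complex's kinase, had 731.3, 772.3 and 851.3 normalised reads in DDC, 926.5, 878.5 and 963.5 in SLC6A4 and 646.0, 686.1 and 618.6 in EV libraries, again with no overlap of the lines. It rose by 0.27 (adjusted p = 0.035) and 0.51 (adjusted p = 3.57e-05). INCENP, the scaffold of the complex, was counted with 47, 41 and 44 reads in all in the DDC, SLC6A4 and EV lines and did not pass in either.

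AURKA and its spindle activator TPX2 changed in the SLC6A4 line. TPX2 had 805.0, 756.9 and 749.9 normalised reads in DDC, 1047, 1056 and 1083 in SLC6A4 and 714.9, 775.4 and 703.3 in EV libraries, and DDC overlapped EV while SLC6A4 lay above both. The values over EV were 0.08 ± 0.085 in DDC (adjusted p = 0.572) and 0.54 ± 0.065 in SLC6A4 (adjusted p = 1.01e-05). AURKA had 914.1, 902.1 and 943.8 normalised reads in DDC, 1113, 1114 and 1190 in SLC6A4 and 808.6, 753.6 and 828.6 in EV libraries, and all 3 lines were apart. It rose by 0.52 ± 0.065 in SLC6A4 (adjusted p = 1.75e-05) and had 0.21 ± 0.083 in DDC (adjusted p = 0.0835). PLK1, polo-like kinase, rose in DDC (0.46 ± 0.122, adjusted p = 0.0101) although 548.5 in 1 DDC library lay under the 567.4 of 1 EV library. In SLC6A4 PLK1 had 0.19 (adjusted p = 0.334). TTK, BUB1 and TACC3 did not pass, with -0.53, -0.15 and 0.31 in DDC and 0.11, 0.29 and 0.28 in SLC6A4.

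**Figure D3:**
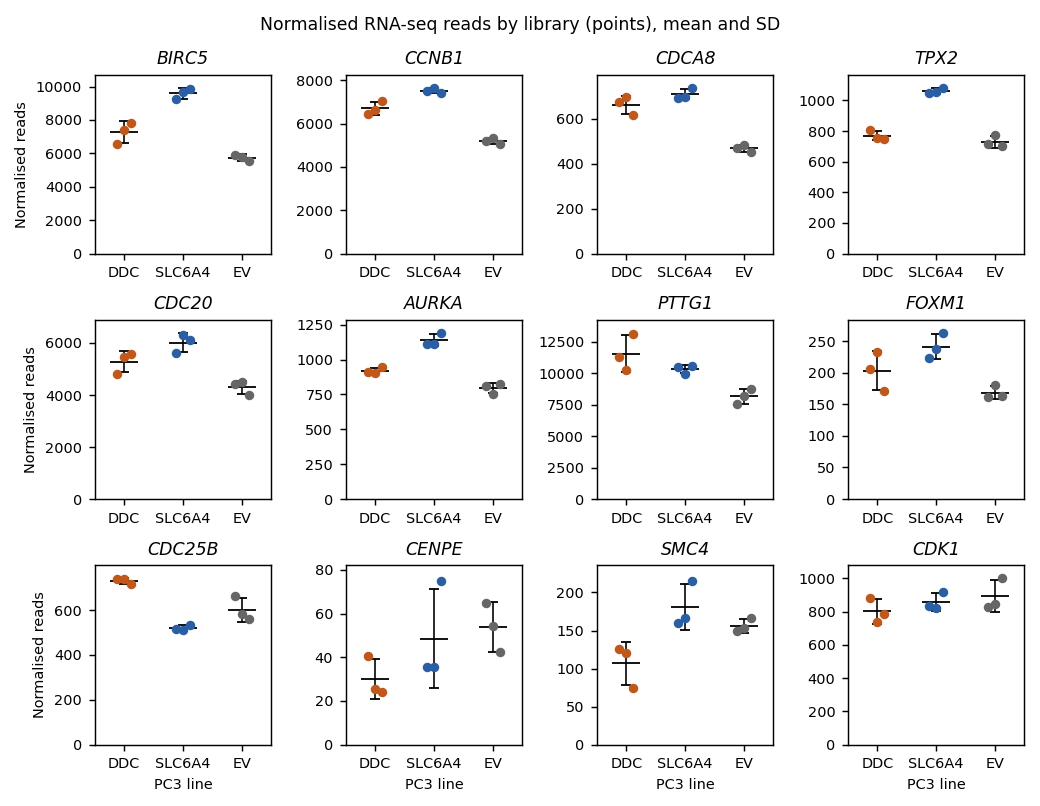
Normalised RNA-seq reads of 12 members in each library (points), with the mean and SD of 3 libraries, for the DDC, SLC6A4 and EV lines; each axis starts at 0. BIRC5, TPX2 and AURKA are highest in SLC6A4, CDC25B is highest in DDC, CENPE and SMC4 have their lowest means in DDC, and the lines overlap for CDK1.

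Checkpoint and APC/C genes rose in part, 3 of 8 in DDC cells (PTTG1, CDCA3, CDC20) and 4 of 8 in SLC6A4 cells (CDC20, CDCA3, BUB3, PTTG1), and none fell. The shares of all genes higher were 8.94% and 10.2%. PTTG1 encodes securin, which restrains separase. It had 11283, 10221 and 13140 normalised reads in DDC, 10522, 9971 and 10569 in SLC6A4 and 7551, 8210 and 8752 in EV libraries, and EV lay below both other lines. The log2 fold changes were 0.50 ± 0.090 (adjusted p = 0.000339) and 0.34 ± 0.056 (adjusted p = 0.000249) in DDC and SLC6A4. CDC20, which activates the APC/C, had 4818, 5465 and 5565 normalised reads in DDC, 5613, 6314 and 6115 in SLC6A4 and 4408, 4481 and 4002 in EV libraries. Its order was SLC6A4, DDC and EV from high to low without overlap, with 0.30 (adjusted p = 0.0104) in DDC and 0.49 (adjusted p = 1.11e-05) in SLC6A4. CDCA3, a substrate receptor subunit that promotes mitotic entry, had 396.8, 481.8 and 429.6 normalised reads in DDC, 450.2, 511.9 and 470.3 in SLC6A4 and 300.4, 333.2 and 293.8 in EV libraries, with both lines above EV. Its fold changes were 0.50 (adjusted p = 0.00124) and 0.63 (adjusted p = 3.27e-05). BUB3, a checkpoint protein, had 6955, 6449 and 7720 normalised reads in DDC, 8611, 8056 and 8020 in SLC6A4 and 6038, 6631 and 6248 in EV libraries, with SLC6A4 above the other lines and DDC overlapping EV. It rose in SLC6A4 (0.38 ± 0.052, adjusted p = 3.74e-05). UBE2C, MAD2L1, BUB1B and ESPL1 did not pass in either line; ESPL1 (separase) had 0.47 in DDC (adjusted p = 0.0524) and 0.39 in SLC6A4.

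Of the 7 kinetochore genes 0 rose and 1 fell in DDC, and none passed in SLC6A4; with 8.94% and 10.2% of all genes higher, a count of 0 among 7 does not set them apart from genes at large. CENPE, a kinesin that carries chromosomes to the spindle equator, had 40.5, 25.3 and 23.9 normalised reads in DDC, 35.4, 35.4 and 74.7 in SLC6A4 and 64.8, 54.5 and 42.3 in EV libraries. DDC lay below EV by a small margin, and SLC6A4 spanned both. CENPE fell in DDC cells (-0.84 ± 0.230, adjusted p = 0.0124), on 86 reads in DDC and 162 in EV over the 3 libraries of each line. The call was lost without EV library 1 or without DDC library 3 (highest adjusted p = 0.0869) and under DESeq2 (adjusted p = 0.108). CENPF had -0.35 in DDC and 0.22 in SLC6A4, and NUF2 had -0.34 and 0.16. CENPA, NDC80, SPC24 and SPC25 lay between -0.01 and 0.40 in DDC and between 0.11 and 0.34 in SLC6A4.

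Of 9 spindle genes, 2 rose in DDC cells (KIFC1, KIF2C) and 5 in SLC6A4 cells (KIFC1, KIF20A, KIF23, HMMR, KIF2C). The shares of all genes higher were 8.94% and 10.2%. KIFC1, a minus-end-directed kinesin that clusters spindle poles, had 535.0, 540.1 and 558.9 normalised reads in DDC, 549.7, 575.4 and 528.1 in SLC6A4 and 425.9, 348.5 and 419.9 in EV libraries. Both lines lay above EV and overlapped each other, with 0.46 ± 0.098 (adjusted p = 0.00166) in DDC and 0.47 ± 0.086 (adjusted p = 0.000671) in SLC6A4. KIF23, a kinesin of the central spindle, rose by 0.66 in SLC6A4 (adjusted p = 0.00765), and HMMR, a spindle-bound hyaluronan receptor, by 0.49 (adjusted p = 0.00747). KIF20A, a kinesin of cytokinesis, rose by 0.42 in SLC6A4 (adjusted p = 0.00387), and KIF2C, a microtubule depolymerase, rose by 0.34 in DDC (adjusted p = 0.0241) and 0.30 in SLC6A4 (adjusted p = 0.0217). KIF11, the kinesin that separates spindle poles, had 0.74 ± 0.338 in SLC6A4 and did not pass (adjusted p = 0.14), on 98 reads in SLC6A4 and 52 in EV. PRC1, DLGAP5 and NUSAP1 did not pass, with 0.07, -0.12 and -0.15 in DDC and 0.27, 0.23 and 0.17 in SLC6A4. Reads of PRC1 and NUSAP1 are uncertain, because other annotated genes on the same strand cover 57.6% and 81.4% of their exon bases.

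In cytokinesis, RACGAP1, a subunit of the central spindle complex, rose in DDC (0.38, adjusted p = 0.0112) and in SLC6A4 (0.30, adjusted p = 0.016). ANLN (anillin), a scaffold of the contractile ring, had 101.8, 86.9 and 57.7 normalised reads in DDC, 97.7, 118.0 and 121.6 in SLC6A4 and 78.2, 57.7 and 70.9 in EV libraries, so that SLC6A4 lay above EV and DDC spanned both. It rose by 0.70 ± 0.148 in SLC6A4 (adjusted p = 0.00239). ECT2, the exchange factor that activates RhoA at the division plane, had -0.35 in DDC and 0.29 in SLC6A4 and passed in neither.

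Among the 8 chromosome genes 1 rose, NCAPD2 of the condensin complex in SLC6A4 cells (0.38, adjusted p = 0.018), and 1 fell, SMC4 in DDC cells. A count of 1 among 8 is near the 10.2% of all genes higher in SLC6A4 and the 8.41% lower in DDC. SMC4, the condensin ATPase, had 125.7, 119.9 and 74.6 normalised reads in DDC, 160.0, 166.1 and 215.2 in SLC6A4 and 149.2, 153.6 and 166.8 in EV libraries. DDC lay below all other libraries, with DDC library 3 the lowest. The fall in DDC was -0.58 ± 0.160 (adjusted p = 0.0137), and without DDC library 3 it was -0.34 and no longer passed (adjusted p = 0.0882). DESeq2 gave -0.55 (adjusted p = 0.0747). In input chromatin the SMC4 promoter region was also lower in DDC, at a mean of 170 CPM (depth-scaled counts) in DDC against 241 CPM in EV; the part of this in the RNA value was not tested. MKI67, the Ki-67 antigen, had 343.8, 317.9 and 238.7 normalised reads in DDC, 360.0, 341.3 and 331.8 in SLC6A4 and 299.4, 259.2 and 306.7 in EV libraries. SLC6A4 lay above EV, yet the value of 0.26 ± 0.089 did not pass (adjusted p = 0.0504), and DDC had 0.05 (adjusted p = 0.837). TOP2A, the topoisomerase that untangles sister chromatids, had 284.6, 309.1 and 211.8 normalised reads in DDC, 373.9, 327.6 and 348.7 in SLC6A4 and 363.1, 261.4 and 357.7 in EV libraries. DDC and SLC6A4 each overlapped EV, while DDC lay below SLC6A4, with -0.28 (adjusted p = 0.164) in DDC and 0.11 (adjusted p = 0.543) in SLC6A4. HMGB2, SMC2, NCAPG and NCAPH had values from -0.36 to -0.09 in DDC and from -0.10 to 0.25 in SLC6A4, and none passed.

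Set against each other in 1 fit of all 9 libraries, the DDC and SLC6A4 lines differed in 14 members. In DDC cells 1 member was higher than in SLC6A4 cells and 13 were lower (1.85% and 24.1%), while 6.47% of the 13544 genes tested were higher and 6.74% lower. Libraries did not overlap for 1 member higher and 22 lower in DDC (14.1% and 14.6% of genes). CDC25B was the member higher in DDC, by 0.49 ± 0.081 (adjusted p = 0.000205). SMC4 was lower in DDC by the widest margin, -0.78 ± 0.161 (adjusted p = 0.00203), followed by ECT2 at -0.64 (adjusted p = 0.0186), CENPF at -0.57 (adjusted p = 0.00584) and HMMR at -0.55 (adjusted p = 0.0157). SMC4 and ECT2 both lie on chromosome 3. Their promoter regions had the lowest input log2 ratios of DDC to EV among the members, -0.50 and -0.55. An SLC6A4 input was not analysed, and the part of input in these RNA values was not tested. TPX2, BIRC5 and AURKA differed by -0.46 (adjusted p = 0.000127), -0.40 (adjusted p = 0.000363) and -0.31 (adjusted p = 0.00574). The checkpoint genes BUB1B, BUB1, MAD2L1 and BUB3 were lower as well, at -0.47, -0.44, -0.33 and -0.23, as were CCNA2 (-0.39) and NUSAP1 (-0.32). CCNB1, CDCA8, CDC20, PTTG1 and KIFC1 did not pass between the lines, with -0.17, -0.10, -0.19, 0.15 and -0.02. With library-size scaling 23 members were lower in DDC, and the split over all genes was 578 higher and 1430 lower in place of 876 and 913. Of the 13 lower members 5 (AURKA, BIRC5, CENPF, SMC4 and TPX2) kept their call whichever library was left out.

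Exon length went with the DDC values over all genes. Across all 13140 tested genes with an annotated exon length, the log2 fold change in DDC over EV had a Spearman correlation of -0.10 with exon length, and across the 54 members one of -0.30. For SLC6A4 over EV these were -0.03 and -0.06, and for DDC against SLC6A4 they were -0.07 and -0.36. Of 17 members in the shortest tertile of genes by exon length 7 rose in DDC (12% of genes in that tertile), of 29 in the middle tertile 6 rose (9.11%), and of 8 in the longest tertile 0 rose and 2 fell (5.71% rose and 7.99% fell). The median log2 fold change of the members did not follow that order, at 0.26 in the shortest, -0.01 in the middle and 0.10 in the longest tertile, where all genes had 0.06, 0.01 and -0.05. In SLC6A4 10 of 17 in the shortest tertile and 2 of 8 in the longest rose (12.8% and 7.42% of genes in those tertiles). The part of exon length in the DDC values was not tested.

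Other genes of the same machinery were listed apart from the members. Over all genes tested, 8.94% rose and 8.41% fell in DDC, and 10.2% rose and 9.28% fell in SLC6A4. The rises of the further APC/C genes in SLC6A4 were near that share. Of 17 further kinesin and spindle genes 3 rose and 3 fell in DDC and 8 rose and 0 fell in SLC6A4, with medians of 0.01 and 0.31. STMN1, which destabilises microtubules, rose by 0.50 in DDC (adjusted p = 0.000238) and 0.65 in SLC6A4 (adjusted p = 3.39e-08). KNSTRN, a spindle adaptor, fell in DDC (-0.43, adjusted p = 0.000901) and rose in SLC6A4 (0.43, adjusted p = 7.1e-05), and ASPM, a spindle pole protein, rose by 0.89 in SLC6A4 (adjusted p = 0.0342). Of 21 further kinetochore genes 4 rose in DDC, and of 20 tested 4 rose in SLC6A4, with none lower; CENPM rose by 0.69 (adjusted p = 9.15e-06) and 0.74 (adjusted p = 3.43e-07). Of 17 further APC/C genes 4 rose and 1 fell in DDC and 2 rose in SLC6A4, ANAPC2, the cullin subunit, having the widest rise (1.84, adjusted p = 0.00251, and 1.33, adjusted p = 0.0449) and CDC27, a scaffold subunit, falling in DDC (-0.46, adjusted p = 0.00678).

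At the chromatin level, 50 of the 54 members had a H3K4me3Q5ser region within 1000 bp of their start, 50 distinct regions with a median length of 10070 bp (5523 to 22925 bp) against 4023 bp over all 19535 regions. NUSAP1, NUF2, RACGAP1 and SPC25 had none within that window. The start used was the outermost end of the annotated gene, and other starts were not examined, so the mark may lie at another start of these genes. Within 5000 bp, 52 members had a region. Libraries held 13511040 to 24765380 read pairs in these regions for H3K4me3Q5ser, 3429714 to 5811116 for H3K4me3 and 1394509 to 1833609 for the inputs of DDC and EV; an SLC6A4 input was not analysed here. Values are CPM, counts scaled to the total of the read pairs that fall in the regions, so they compare regions within a library and carry no genome-wide level. Across the 50 member regions, the EV level of each mark tracked the EV input with a Spearman correlation of 0.90 for H3K4me3Q5ser and 0.91 for H3K4me3, and across all regions it was 0.96 and 0.95. In EV cells, H3K4me3Q5ser CPM over input CPM at the members had a median of 1.23 (0.778 to 1.97).

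Base composition moved with the SLC6A4 differences in both marks. Over 19480 regions with a computed GC content, the log2 fold change of SLC6A4 over EV had a Spearman correlation with GC of 0.71 for H3K4me3Q5ser and of 0.68 over 18921 regions for H3K4me3, and over the 50 member regions these were 0.78 and 0.79. Member regions had a median GC of 45.4% (37.5 to 57.0%), against 46.8% over all regions. For DDC over EV the correlations at the members were 0.33 and -0.20. The part of base composition in the values below was not tested.

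With that beside them, the promoter marks of the members went both ways in each line. For H3K4me3Q5ser in DDC, 25 of 50 members were higher and 16 lower than in EV (29.7% and 31.5% of all regions), and in SLC6A4 22 were higher and 22 lower (41.0% and 41.5%). For H3K4me3 in DDC, 6 were higher and 4 lower (8.24% and 9.39%), and in SLC6A4 16 were higher and 21 lower (31.9% and 29.6%). Between DDC and SLC6A4, 21 were higher and 22 lower for H3K4me3Q5ser (38.0% and 38.9%), and 19 higher and 14 lower for H3K4me3 (29.3% and 30.9%). Library-size scaling turned the H3K4me3Q5ser split between DDC and SLC6A4 to 26 higher and 17 lower. It turned the splits of SLC6A4 over EV to 18 higher and 25 lower for H3K4me3Q5ser and 16 and 17 for H3K4me3. DESeq2 turned that of H3K4me3 in DDC over EV to 1 higher and 4 lower. In SLC6A4, 16 of the 20 members in the lowest GC tertile were lower in each mark, where 79.5% of H3K4me3Q5ser and 63.4% of H3K4me3 regions of that tertile were lower. In the highest tertile 8 of 9 members were higher in H3K4me3Q5ser and 6 of 9 in H3K4me3, where 73.2% and 61.6% of regions were higher.

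**Figure D4:**
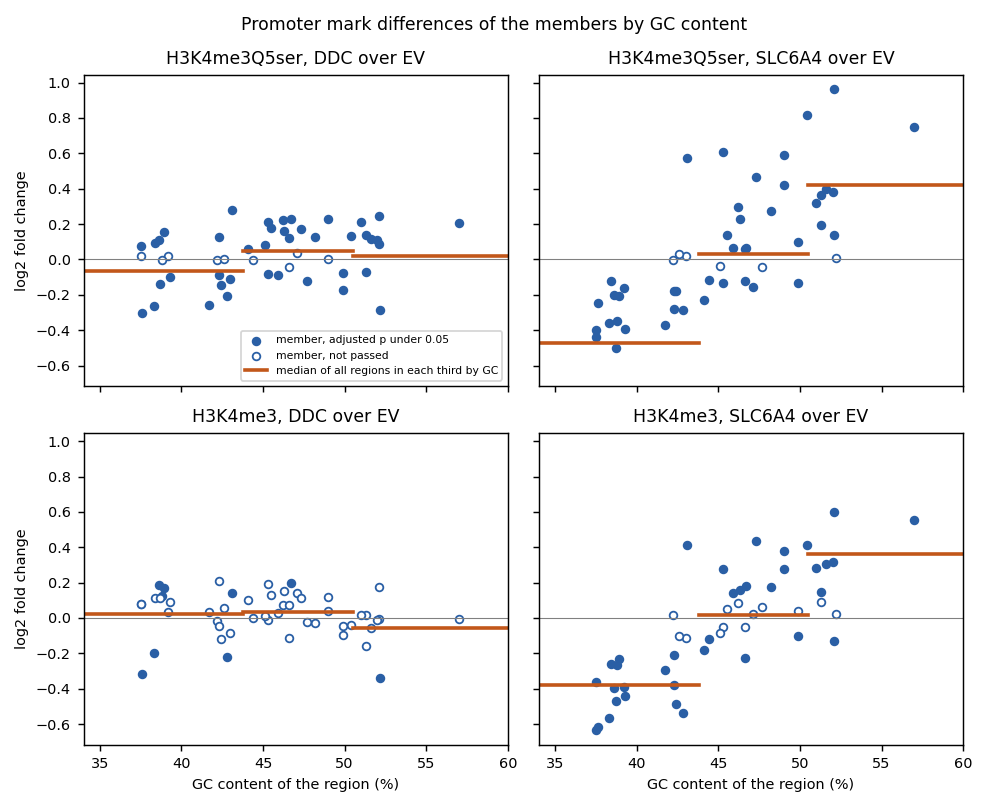
The log2 fold change of H3K4me3Q5ser (top) and H3K4me3 (bottom) at the 50 member regions against the GC content of the region, for DDC over EV (left) and SLC6A4 over EV (right); orange bars are medians of all regions in each tertile by GC, drawn over the plotted GC range. In the SLC6A4 panels 16 of the 20 members in the lowest GC tertile are filled and below 0 in each mark; the DDC panels show no such slope for H3K4me3, with a Spearman correlation of -0.20.

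The 6 member regions with the smallest adjusted p over the ChIP comparisons were those of CDK1, TACC3, BIRC5, SMC4, AURKA and PLK1. The region of CDK1 (chr10:60774152-60788228, GRCh38, GC 37.5%) had 491, 467 and 474 CPM of H3K4me3 in DDC, 297, 287 and 289 in SLC6A4 and 452, 441 and 461 in EV libraries. SLC6A4 stood far below both other lines, and DDC just above EV. The log2 fold change was -0.64 ± 0.030 in SLC6A4 (adjusted p = 4.22e-98) and 0.08 ± 0.028 in DDC (adjusted p = 0.03). Its H3K4me3Q5ser was -0.40 in SLC6A4 (adjusted p = 1.02e-52), while CDK1 RNA did not pass in that line. SMC4 (chr3:160394695-160409099, GC 37.6%) had 294, 279 and 288 CPM of H3K4me3Q5ser in DDC, 301, 296 and 298 in SLC6A4 and 353, 360 and 347 in EV libraries, and both lines lay below EV. H3K4me3 there fell by 0.32 on the log2 scale in DDC (adjusted p = 1.48e-14) and by 0.62 in SLC6A4 (adjusted p = 3.16e-59).

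BIRC5 (chr17:78212241-78222205, GC 50.4%) had 105, 103 and 106 CPM of H3K4me3Q5ser in DDC, 169, 166 and 172 in SLC6A4 and 98.6, 94.3 and 94.5 in EV libraries. The 3 lines were apart in the order of BIRC5 RNA, SLC6A4 over DDC over EV. H3K4me3Q5ser rose by 0.82 ± 0.023 in SLC6A4 (adjusted p = 4.21e-60) and 0.13 ± 0.027 in DDC (adjusted p = 2.1e-05), and H3K4me3 by 0.41 in SLC6A4 (adjusted p = 3.46e-11). TACC3, a spindle protein that binds Aurora A (chr4:1707340-1727539, GC 57.0%), had 148, 149 and 157 CPM of H3K4me3Q5ser in DDC, 221, 221 and 218 in SLC6A4 and 132, 128 and 132 in EV libraries, with all lines apart. AURKA (chr20:56383567-56400419, GC 43.1%) had 207, 205 and 206 CPM in DDC, 252, 255 and 252 in SLC6A4 and 169, 174 and 168 in EV libraries. It rose by 0.28 in DDC (adjusted p = 2.55e-23) and by 0.57 in SLC6A4 (adjusted p = 5.75e-55), in a region from the lowest GC tertile. PLK1 (chr16:23678221-23684823, GC 52.1%) had 39.5, 38.3 and 36.6 CPM in DDC, 64.7, 62.6 and 61.7 in SLC6A4 and 33.0, 32.4 and 31.2 in EV libraries. Its rise of 0.97 ± 0.036 in SLC6A4 (adjusted p = 3.56e-48) was the widest of the members. The PLK1 region begins past the annotated start of the gene at 23677656 and does not cover it. Input in that region averaged 25.972 CPM in EV libraries. The deposited H3K4me3 peak list held no peak within 1000 bp of the start of PLK1 or TACC3.

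At other named members, H3K4me3Q5ser rose in SLC6A4 by 0.61 at MKI67, 0.42 at FOXM1, 0.23 at KIFC1, 0.20 at CDC20, 0.14 at CCNB1, 0.10 at AURKB and 0.06 at TOP2A. It fell at CENPE (-0.20) and did not pass at BUB3 (0.02) and CDCA3 (0.01).

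Input differed between DDC and EV at some of the regions that fell in DDC. Over the members the input log2 ratio of DDC to EV had a median of -0.03, with ECT2 lowest at -0.55, then SMC4 at -0.50, ANLN at -0.43 and TTK at -0.39, and ESPL1 highest at 0.30. ECT2, SMC4 and ANLN were also lower in DDC in H3K4me3Q5ser (-0.26, -0.30 and -0.21) and in H3K4me3 (-0.20, -0.32 and -0.22). Across the 50 members the DDC fold change tracked the input ratio with a Spearman correlation of 0.64 for H3K4me3Q5ser and 0.24 for H3K4me3, and across all regions 0.44 and 0.36. The part of input in these falls was not tested.

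The serotonylated mark rose relative to plain H3K4me3 at more members in SLC6A4 cells than it fell. Tested as an interaction of mark and line over 18 libraries, 16 of 50 members were higher and 0 lower in SLC6A4 (14.5% and 14.7% of 19529 regions), and 2 were higher and 3 lower in DDC (5.15% and 9.9%). BIRC5 had the widest excess in SLC6A4 (0.41 ± 0.064, adjusted p = 3.04e-08), then SMC4 (0.37, adjusted p = 2.35e-16) and PLK1 (0.37, adjusted p = 0.00314). The sign covers unlike cases: at BIRC5 both marks rose and the serotonylated mark rose more, while at SMC4 and CDK1 both fell and it fell less. By GC, 8 of 20 members in the lowest tertile were higher (8.07% of regions in that tertile), 4 of 21 in the middle tertile (16.7%) and 4 of 9 in the highest (18.8%). In DDC the 2 higher members were in the highest tertile and the 3 lower ones in the lowest (11% and 19.6% of regions in those tertiles), and across the 50 members the DDC interaction had a Spearman correlation with GC of 0.53, against 0.04 for SLC6A4. The count rests on how the libraries of the 2 marks are scaled: by library size alone 11 members were higher and 7 lower, the split over all regions was 1428 higher and 4661 lower in place of 2825 and 2880, and DESeq2 gave 17 higher and 0 lower members with 3250 and 2036 regions.

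**Figure D5:**
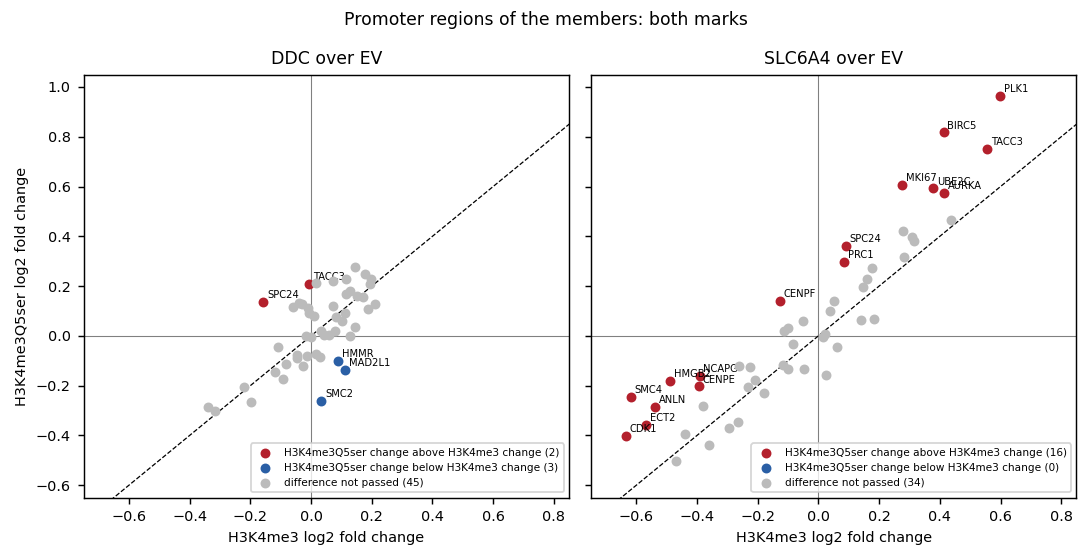
The log2 fold change of H3K4me3Q5ser against that of H3K4me3 at the 50 member regions, in DDC over EV (left) and SLC6A4 over EV (right); the dashed line marks equal change and coloured points passed the interaction test. In SLC6A4 the 16 coloured points lie above the line, from CDK1 at the lower left to PLK1 at the upper right; DDC has 2 above and 3 below.

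Members whose RNA rose had promoter marks that went either way. Of the 21 members with a region whose RNA rose in SLC6A4, H3K4me3Q5ser was higher at 10, lower at 8 and did not pass at 3. H3K4me3 was higher at 8, lower at 8 and did not pass at 5. Of the 29 whose RNA did not pass, H3K4me3Q5ser was higher at 12 and lower at 14, and H3K4me3 at 8 and 13. Shares of all regions higher and lower in SLC6A4 were 41.0% and 41.5% for H3K4me3Q5ser and 31.9% and 29.6% for H3K4me3. Of the 12 with risen RNA in DDC, H3K4me3Q5ser was higher at 6 and lower at 4, and H3K4me3 was higher at 1 and lower at 1. Of the 36 whose RNA did not pass in DDC, H3K4me3Q5ser was higher at 18 and lower at 11, and H3K4me3 at 4 and 2. Shares of all regions in DDC were 29.7% and 31.5% for H3K4me3Q5ser and 8.24% and 9.39% for H3K4me3. Across the 50 members the RNA and mark fold changes had Pearson correlations of 0.29 (H3K4me3Q5ser) and 0.06 (H3K4me3) in DDC and of 0.17 for both marks in SLC6A4; the points share libraries and the base composition above. BIRC5, CDCA8 and AURKA rose in RNA and in both marks in SLC6A4 cells, CKS1B and TPX2 rose in RNA and were lower in both marks (-0.13 and -0.12 in H3K4me3Q5ser, -0.10 and -0.12 in H3K4me3), and PTTG1 RNA rose where its H3K4me3Q5ser was -0.35.

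The deposited peak lists placed a peak within 1000 bp of the start of 48 members (88.9%) for H3K4me3, 50 (92.6%) for H3K4me3Q5ser and 50 (92.6%) in the overlapped list, against 78.5%, 88.5% and 82.4% of 11338 tested protein-coding genes. CUT&Tag, which cuts and tags chromatin where an antibody sits, gave H3K4me3 values for 1 library each of SLC6A4 cells with TGM2 knockdown, SLC6A4 cells and control cells, so its differences have no replicate check. The values are taken as CPM from their sums, since the header names no unit, and they cover the 13882 peaks the authors did not call up, so the ratios below come from peaks selected by the authors and leave out the 2163 called up. At 54 listed peaks of 43 members, SLC6A4 over control had a median log2 ratio of 0.14, with 45 peaks above 0, beside 0.10 and 69.3% above 0 over all peaks of that list. TGM2 knockdown over SLC6A4 had a median of -0.02 at the members, with 21 peaks above 0, and -0.08 and 27.9% over that list. A CDC25B peak, the lowest for SLC6A4 over control and the highest for knockdown over SLC6A4, had 5.81 CPM in SLC6A4 cells with TGM2 knockdown, 4.46 in SLC6A4 cells and 7.22 in control cells. The authors' list of peaks called up held a peak near 15 members (27.8%), against 15.7% of tested coding genes, and FOXM1, CCNB1, CDCA8 and AURKA were among the 15; how that list was drawn is not given in the sources used here.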

How the data were processed

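RNA-seq of 9 PC3 libraries (oligo(dT) mRNA) and ChIP-seq of H3K4me3, H3K4me3Q5ser and input were used. Per the submitters' processing notes reads were aligned to GRCh38 with HISAT2 2.1.0, counted with featureCounts and normalised with DESeq2. The deposited RNA values are a normalised signal per gene, 1 table for each line against EV, in which 100% of values were whole multiples (tolerance 1e-06) of 1 read's worth in a library, so reads were recovered; 20966 of the 62703 genes have no name. The planned count test was replaced, because the deposited unit is not a count, by limma 3.58.1 (trend) on log2(normalised reads + 1) keeping genes that reached 10 normalised reads in 3 or more libraries, a scale that understates the change of low genes. For DDC against SLC6A4, the recovered reads of the 9 libraries were put on 1 set of size factors. Fold changes and p-values in the deposited RNA tables are from the authors' DESeq2 and were not used. The deposited ChIP values are estimated counts per region, fractional per the file headers (featureCounts 2.0.3), of which 9.78% were not whole and were rounded, and were tested with edgeR 4.0.16 (quasi-likelihood, TMM) over 9 libraries of a mark, or 18 for the interaction. The deposited CUT&Tag values, taken as CPM from their sums because no unit is named, and the authors' peak lists were used unchanged. Adjusted p is Benjamini-Hochberg over all features, two-sided, called under 0.05. The members and all lists were chosen with earlier results of these data known. Per-library values are given for members with the smallest adjusted p against EV, for CCNB1, CDK1, FOXM1, MKI67 and TOP2A and for those that fell; CDC25B and ANLN were added after their values were seen. Other lists are given by counts with their widest called rise and fall, and promoters by the smallest adjusted p. Gene annotation was GENCODE 44 and promoter sequence RefSeq GRCh38.p14. No strand setting is stated for RNA, so reads of an antisense partner cannot be told apart (22 members share exon bases with another gene), and PTTG1, CKS1B, CKS2 and HMGB2 have near-identical copies elsewhere. Alternatives were DESeq2 1.42.0, edgeR on recovered reads, library-size scaling, no low-value filter, pseudocount 5, a wider promoter window, all 9 RNA libraries in 1 fit, a replicate block and leaving out each library. The scripts were tested on simulated data. SLC6A4 input and CUT&Tag of DDC lines were not analysed here. The prostate marker list is given only in part, and the rest of it is not reported here.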

Additional observations from a re-analysis of the deposited data

Results flagged for a closer look

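The change of H3K4me3Q5ser over EV differed from that of H3K4me3 over EV at 21 results among the members, by the interaction of mark and line (edgeR quasi-likelihood test over 18 libraries); the values below are the H3K4me3Q5ser log2 fold change minus the H3K4me3 log2 fold change. In DDC cells the difference was 0.30 at SPC24 and 0.22 at TACC3, and -0.18 at HMMR, -0.24 at MAD2L1 and -0.29 at SMC2; the first 2 regions are in the highest tertile by GC (51.3% and 57.0%) and the other 3 in the lowest (39.3%, 38.7% and 41.7%), and the part of base composition was not tested. In SLC6A4 cells it was 0.41 at BIRC5, 0.37 at PLK1 and at SMC4, 0.33 at MKI67, 0.31 at HMGB2, 0.27 at CENPF and at SPC24 and 0.25 at ANLN. It was 0.24 at CDK1, 0.23 at NCAPG, 0.22 at UBE2C, 0.21 at ECT2 and at PRC1, 0.20 at TACC3, 0.19 at CENPE and 0.16 at AURKA. SPC24, a kinetochore subunit, and TACC3, a spindle protein, are listed for both lines, which share their EV libraries.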

How the results depend on the processing

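No called fold change of a single member changed sign under any alternative run, but the members' median in DDC over EV RNA was -0.01 with library-size scaling in place of 0.11. Scaling by library size alone gave 6 members higher and 5 lower in DDC over EV, 1 lower in SLC6A4 over EV, 23 lower in DDC against SLC6A4, and 7 lower in the SLC6A4 interaction. DESeq2 gave 10 members higher and 0 lower in DDC over EV RNA, where limma gave 13 and 2. In SLC6A4 over EV RNA it gave 18 and 0, where limma gave 22 and 0. For H3K4me3 in DDC over EV, DESeq2 gave 1 higher. edgeR on recovered reads gave 1 lower in SLC6A4 over EV (CDC25B). The causes were not tested. Leaving out 1 library at a time gave 9 to 12 higher and 0 to 3 lower in DDC over EV RNA, 17 to 23 and 0 to 1 in SLC6A4 over EV, and 1 to 2 and 8 to 14 in DDC against SLC6A4. For H3K4me3Q5ser the ranges were 24 to 25 and 14 to 16, 19 to 22 and 22 to 23, and 21 to 23 and 19 to 22 in the same order of comparisons, and for H3K4me3 4 to 7 and 4 to 5, 14 to 17 and 17 to 21, and 18 to 20 and 14 to 15. The interaction ranged from 2 to 3 higher and 2 to 3 lower in DDC and from 15 to 17 and 0 to 1 in SLC6A4. Replicate numbers did not pair the samples (correlations of same-numbered libraries from -0.108 to 0.019), and a replicate block gave 15 higher and 3 lower in DDC over EV RNA, 22 and 0 in SLC6A4 over EV, and 1 and 13 between the lines. Low reads limit INCENP, CENPA, KIF11, TTK and CENPE, with 41 to 162 reads per line.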

Other observations

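In RNA, 8.94% of all genes tested rose and 8.41% fell in DDC, and 10.2% rose and 9.28% fell in SLC6A4. Genes of the G1/S transition and DNA replication, listed apart from the members, rose at 14 of 26 in SLC6A4 cells and 5 of 26 in DDC cells, with none lower and medians of 0.34 and 0.17; TK1, thymidine kinase, rose by 0.71 in SLC6A4 (adjusted p = 7.2e-07) and MCM2, a replicative helicase subunit, by 0.54 in DDC (adjusted p = 0.0468). Of 13 cohesin genes 1 rose and 2 fell in DDC and 2 rose in SLC6A4. CDCA5 (sororin), which stabilises cohesion, rose by 0.33 in DDC (adjusted p = 0.0326) and by 0.52 in SLC6A4 (adjusted p = 0.000341), and PDS5A fell in DDC (-0.74, adjusted p = 0.0333). None of 3 further condensin genes passed in DDC.

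The lists that follow hold few genes, and several of their shares are near those over all genes (for example 15.4% and 7.69% higher for DREAM genes in DDC and SLC6A4). Among genes listed under control of mitotic entry, which include kinases as well as phosphatase regulators, 1 of 10 fell in DDC (PPP2R2A, -0.77, adjusted p = 0.00494). For SLC6A4, of 11 such genes 1 rose (CDC25A, 0.88, adjusted p = 0.0343) and 1 fell (ARPP19, -0.53, adjusted p = 0.00472). Of 13 genes of the DREAM complex and its partners 2 rose in DDC, LIN37 by 0.41 (adjusted p = 0.0329) among them, and 1 in SLC6A4, NFYC by 0.45 (adjusted p = 0.00255). Of 6 CDK inhibitors 1 fell in DDC (CDKN1C, -0.52, adjusted p = 0.034) and 1 in SLC6A4 (CDKN2B, -2.49, adjusted p = 0.00416).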
